A study of Rattus norvegicus with 4 samples.

Results

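Hypoxic H9c2 cells were compared with normoxic H9c2 cells across every mature miRNA of the series. All 765 rows of the deposited table were taken, and 353 of them had a value above 0 in 1 of the cell libraries or in both. Of these, 316 were listed in both libraries, 22 in normoxic cells only and 15 in hypoxic cells only, and 412 were listed in neither. No measured value was used to choose the rows.

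H9c2 is a rat line of cardiomyoblasts, and both groups of cells were grown in medium with exosome-depleted serum for 48 h. The normoxic cells were kept in air with added CO2, and the hypoxic cells in a hypoxic chamber with an oxygen absorber (AnaeroPack). Small RNA was sequenced from 1 library of each, and the other 2 of the 4 libraries of the series came from exosomes and are used here only where named. A fold difference between the cell libraries therefore has no replicate check, no p-value is given, and culture, extraction and sequencing run cannot be told apart from the oxygen level.

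A miRNA is cut from a hairpin as a duplex of a 5p and a 3p arm, of which an Argonaute protein usually keeps the one and discards the other. The retained strand represses mRNAs that pair with its seed, bases 2 to 8, so that miRNAs with the same seed share many targets. Low oxygen stabilises the transcription factor HIF, and HIF induces miR-210, the best known of the hypoxamiRs, while miRNAs as a class set cell cycle, apoptosis and metabolism in heart cells.

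The miRNAs on which the comparison turns are printed from the RefSeq table of the rat assembly GRCr8, 5′ to 3′, with the seed in capitals. A sequence was matched for 689 of the 765 names, 326 of the 353 listed in cells and 292 of the 316 listed in both. The first set holds miRNAs from the upper end of the ratios of hypoxic to normoxic cells and, with miR-503-5p and miR-542-3p, further arms of their cluster on the X chromosome, and miR-450a-5p and miR-450b-5p in it have 1 seed and nearly 1 sequence.
miR-210-3p: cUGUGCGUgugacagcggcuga
miR-217-5p: uACUGCAUcaggaacugacugg
miR-450a-5p: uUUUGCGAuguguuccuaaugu
miR-450b-5p: uUUUGCGAuguguuccuaaua
miR-450b-3p: aUUGGGGAcgcuucgcauuca
miR-351-5p: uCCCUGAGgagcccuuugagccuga
miR-322-5p: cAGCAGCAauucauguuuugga
miR-503-5p: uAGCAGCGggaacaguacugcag
miR-503-3p: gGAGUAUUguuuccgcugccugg
miR-542-3p: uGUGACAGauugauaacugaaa

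The second set holds miRNAs with the lowest ratios, and beside miR-146b-5p its seed relative miR-146a-5p, beside miR-7a-5p its relative miR-7b.
miR-671: uCCGGUUCucagggcuccacc
miR-33-5p: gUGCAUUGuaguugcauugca
miR-7a-5p: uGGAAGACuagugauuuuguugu
miR-7b: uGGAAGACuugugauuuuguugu
miR-615: gGGGGUCCccggugcucggauc
miR-146b-5p: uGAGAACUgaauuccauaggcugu
miR-146a-5p: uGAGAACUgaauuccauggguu
miR-129-5p: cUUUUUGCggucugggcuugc

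The third set holds arm pairs from 1 hairpin each, whose arms did not move alike. The arms of a hairpin have different seeds, so a change in their proportion is a change in the seeds present.
miR-199a-5p: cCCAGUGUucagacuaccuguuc
miR-199a-3p: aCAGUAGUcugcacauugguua
miR-152-5p: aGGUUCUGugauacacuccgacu
miR-152-3p: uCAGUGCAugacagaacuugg
miR-27b-5p: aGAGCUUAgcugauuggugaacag
miR-27b-3p: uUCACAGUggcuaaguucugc
miR-221-5p: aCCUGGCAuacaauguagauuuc
miR-221-3p: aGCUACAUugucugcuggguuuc
miR-21-5p: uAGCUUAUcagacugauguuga
miR-21-3p: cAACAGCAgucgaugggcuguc

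The table is in RPM, reads relative to a scale the authors set for each library. Within a library all values above 0 were whole numbers of a common step (100% within 0.1 of a step), and this step was taken as 1 read. The smallest value was 10 steps in both libraries, so a miRNA under 10 reads is listed at 0. On this reading the scale stood for 10404866 reads of normoxic and 13285239 of hypoxic cells. The miRNAs of the table held 5310302 and 3578371 of them, 51.0% and 26.9%, and their summed RPM fell from 510367 to 269349, a ratio of 0.528. Every miRNA is therefore given as a ratio of RPM and as a ratio after rescaling to the sum of the miRNA column, which is the RPM ratio divided by 0.528. Which other reads make up the remainder of the scale was not tested. Intervals are 95% exact intervals on the reads, and as reads after PCR are not separate molecules they cover counting error only.

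On RPM most miRNAs were lower in hypoxic cells. The median ratio over the 316 was 0.612, 274 were below 1 and 42 above 1. The counting interval lay wholly below 1 for 230 miRNAs, wholly above 1 for 21, and held 1 for 65. A ratio below 0.5 was found for 88 (27.8%) and a ratio above 2 for 4 (1.27%).

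Rescaled to the column sum, the direction of many miRNAs turned. The median ratio became 1.16, 211 miRNAs were above 1 and 105 below, and 169 had opposite directions on the scales. Only 12 (3.8%) were below 0.5 and 37 (11.7%) above 2, and the interval lay wholly past the threshold for 4 and 18 of these. On this scale 213 miRNAs (67.4%) lay within 1.5-fold of equal. The order of miRNAs by ratio is the same on both scales, so the ends of that order are described first by their RPM and then on each scale.

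**Figure D1:**
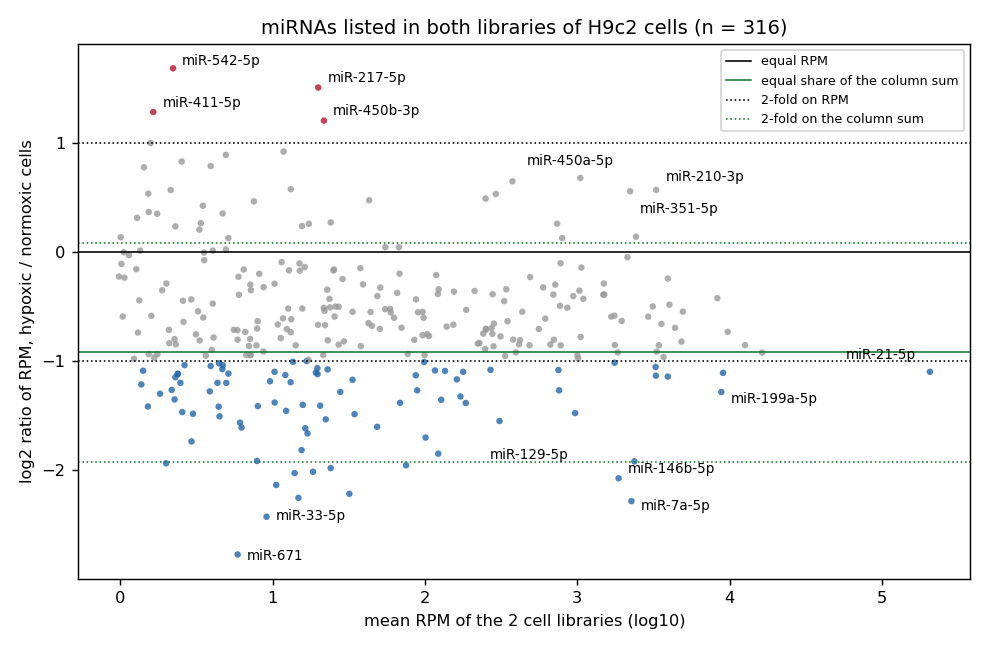
The log2 ratio of RPM, hypoxic to normoxic cells, is plotted against the mean RPM (log10) for the 316 miRNAs listed in both libraries, with blue points below 0.5 and red points above 2 on RPM. Of these, 169 lie between the black line of equal RPM and the green line of equal share, log2 -0.92, 105 below and 42 above both, and the spread is widest on the left, where reads are few.

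The libraries were alike in their rank order. Spearman's rho of the levels was 0.977 and Pearson's r of the log2 levels 0.983 over the 316 miRNAs, which share the library, its depth and the table's floor and are not independent. The 12 most abundant miRNAs held 76.7% of miRNA reads in normoxic and 72.2% in hypoxic cells, and the 40 most abundant 92.4% and 90.7%. Under 1000 reads were counted for 217 of 338 listed miRNAs in normoxic and for 225 of 331 in hypoxic cells.

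miR-21-5p, which is abundant in fibroblasts and in cultured cells, was first in both libraries, with 280137 RPM under normoxia and 130725 RPM under hypoxia. Its share of miRNA reads was 54.9% (54.8% to 54.9%) and 48.5% (48.5% to 48.6%). Without it the sums stood at 230231 and 138624 RPM, a ratio of 0.602. miR-143-3p, a miRNA of smooth muscle and fibroblasts, was second in both and kept its share, with 4.18% and 4.17% of miRNA reads.

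Below these, several abundant miRNAs changed place. miR-210-3p, induced by HIF, had 2650 RPM in normoxia against 3921 RPM in hypoxia and moved from rank 25 to rank 9. miR-221-3p, a repressor of the cell cycle inhibitor CDKN1B, had 4252 and 3587 RPM and moved from rank 19 to rank 10, its RPM ratio of 0.843 lying above the median. miR-351-5p had 1797 and 2637 RPM and moved from rank 34 to 15. These are places within the miRNAs and do not depend on the scale.

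Other abundant miRNAs dropped in the order. miR-7a-5p, a miRNA enriched in brain and endocrine cells, had 3754 RPM in normoxia against 771 RPM in hypoxia and went from rank 20 to 44. miR-146b-5p, which represses IRAK1 and TRAF6 in inflammatory signalling, had 3010 and 715 RPM and went from rank 24 to 46. miR-129-5p, another miRNA known from brain, had 3737 and 988 RPM and went from rank 21 to 37. Of the 12 highest miRNAs in each library 9 were shared, with let-7c-5p falling from rank 11 to 19, miR-22-3p from 12 to 18 and miR-26a-5p from 10 to 13.

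Of 220 miRNAs that reached 100 reads in 1 library, the highest ratio belonged to miR-217-5p, known from the acinar pancreas. It had 10.4 RPM (108 reads) in normoxic cells and 29.4 RPM (391 reads) in hypoxic cells, a ratio of 2.84 (2.29 to 3.54) on RPM and 5.37 (4.33 to 6.71) on the column sum. It was the only miRNA whose interval on RPM lay wholly above 2. Its neighbour on chromosome 14, miR-216a-5p, had 3.46 and 6.40 RPM, a ratio of 1.85 (1.24 to 2.81), and the 3p arm of that hairpin was listed in hypoxic cells only, with 20 reads.

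The group with the most arms among the 12 highest ratios was the X-linked cluster of miR-322, miR-503, miR-351, miR-542, miR-450a and miR-450b. In other cell types miR-322 and miR-503, relatives of miR-15 and miR-16 by seed, are known to restrain the G1 phase of the cell cycle. RefSeq places the 6 genes on the minus strand of chromosome X between 137720933 and 137726241 (GRCr8), and all 12 of their mature arms were listed in both libraries. On RPM 10 of the 12 were above 1 (42 of 316 over all miRNAs) and 2 were above 2 (1.27% of all miRNAs). The median ratio of the 12 was 1.46 against 0.612 over all miRNAs. On the column sum 10 of the 12 were above 2 (11.7% of all miRNAs), with a median of 2.76 against 1.16.

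Within the cluster the most abundant arm was miR-351-5p, with 1797 RPM in normoxia against 2637 RPM in hypoxia, a ratio of 1.47 (1.44 to 1.49). miR-450a-5p had 804 and 1284 RPM, a ratio of 1.60 (1.56 to 1.64). miR-450b-5p had 292 and 457 RPM, a ratio of 1.56 (1.497 to 1.634). The last pair differ by no more than 2 edits and may share reads, so their ratios are not separate evidence.

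The arms of miR-322 were close to each other, with 208 and 292 RPM for the 5p arm and 238 and 344 RPM for the 3p arm. miR-542-3p had 670 and 800 RPM, a ratio of 1.19 (1.16 to 1.23), below that of its neighbours. The 2 arms under 1 on RPM were miR-351-3p, with 6.82 and 6.10 RPM, and miR-503-5p, with 285 and 159 RPM. miR-503-5p, at 0.558 (0.528 to 0.590) on RPM and 1.06 (0.9996 to 1.12) on the column sum, thus lay apart from the other 11 arms and near the median of all miRNAs, although its own 3p arm, with 36.04 and 49.98 RPM, had a ratio of 1.39 (1.22 to 1.58).

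Outside this cluster the upper end held miR-210-3p, miR-664-3p and miR-204-5p. miR-210-3p had 27572 reads in normoxic and 52093 in hypoxic cells, a ratio of 1.48 (1.458 to 1.502) on RPM and 2.80 (2.76 to 2.85) on the column sum. miR-664-3p had 10.6 and 15.7 RPM, and miR-204-5p, known from retina and choroid plexus, had 6.34 and 8.73 RPM. The ratio of miR-204-5p, 1.38 (1.01 to 1.89), rests on 66 and 116 reads.

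The lower end was led by miR-671, with 10.3 RPM (107 reads) in normoxia and 1.51 RPM (20 reads) in hypoxia, a ratio of 0.146 (0.0860 to 0.237). miR-33-5p, which lies in the gene of the sterol regulator SREBF2 and represses the cholesterol exporter ABCA1, had 15.4 and 2.86 RPM, a ratio of 0.186 (0.127 to 0.266). miR-615, of the Hoxc cluster, had 24.4 and 5.12 RPM, a ratio of 0.210 (0.158 to 0.275). These have few reads and wide intervals, yet all 3 intervals lie below 0.5 on RPM.

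The abundant members of the lower end are better resolved. miR-7a-5p had 39060 reads in normoxic and 10242 in hypoxic cells, a ratio of 0.205 (0.201 to 0.210) on RPM and 0.389 (0.381 to 0.398) on the column sum. miR-146b-5p had 31315 and 9493 reads, a ratio of 0.237 (0.232 to 0.243) and 0.450 (0.440 to 0.460). miR-129-5p had 38883 and 13123 reads, a ratio of 0.264 (0.259 to 0.270) and 0.501 (0.491 to 0.511), just outside the threshold on the column sum. On that scale the interval lay wholly below 0.5 for miR-671, miR-7a-5p, miR-152-5p and miR-146b-5p.

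The remaining low ratios were mostly less abundant arms of abundant hairpins. miR-21-3p had 119 RPM in normoxia against 30.8 RPM in hypoxia, miR-152-5p 52.5 and 11.3 RPM, and miR-27b-5p 38.3 and 9.71 RPM. miR-146b-3p had 22.4 and 5.49 RPM, miR-196a-3p 17.2 and 3.91 RPM, and miR-760-3p 29.5 and 7.30 RPM. All 6 were between 0.215 and 0.258 on RPM, and the interval of each lay wholly below 0.5 on that scale.

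**Figure D2:**
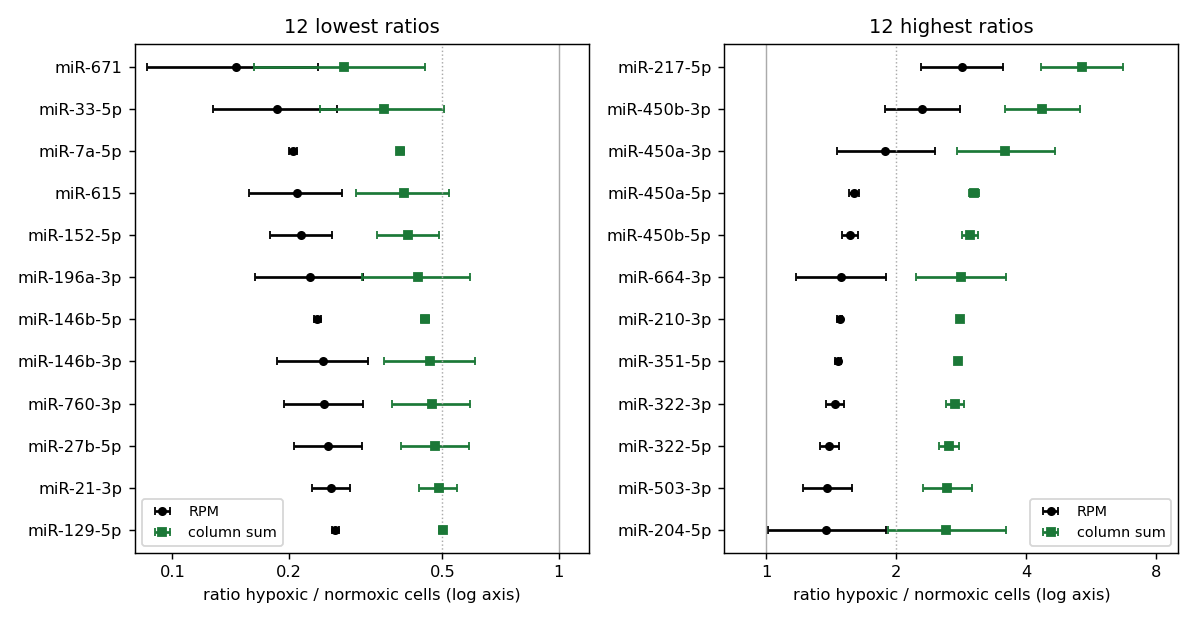
Ratios of hypoxic to normoxic cells on a log axis are plotted for the 12 lowest and the 12 highest of the miRNAs that reached 100 reads in 1 library, on RPM (black circles) and on the column sum (green squares), with 95% exact counting intervals. miR-7a-5p and miR-146b-5p stay below 0.5 on both scales, while among the highest only miR-217-5p and miR-450b-3p have RPM ratios above 2.

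Both arms of a hairpin are counted within the same library, so the ratio of 5p to 3p reads does not depend on how either library was scaled. Of 283 hairpins with both arms in the table, 172 had an arm listed in the cells and 86 had both arms listed in both libraries. The 5p arm was the more abundant in both libraries for 52 of the 86 and the 3p arm for 31. Among arms with a matched sequence, an arm can also come from another locus in 2 hairpins. Arms without a match, such as miR-196a-3p, were not checked for this. The arm ratio moved by more than 1.5 times in 32 hairpins, towards the 3p arm in 18 (20.9%) and towards the 5p arm in 14 (16.3%), and by more than 2 times in 9.

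The median change of the arm ratio, without regard to direction, was 1.36 times. Intervals, computed on the log scale from the 4 read counts, excluded no change for 47 hairpins and lay wholly past 1.5 times for 9. On RPM both arms were lower in hypoxic cells in 75 hairpins and both higher in 4, and the arms fell on either side of 1 in 7. Spearman's rho between the log2 ratios of the arms was 0.338 and Pearson's r 0.467 over the 86 hairpins, whose points share the libraries and their scale. The less abundant arm had the lower ratio in 44 of the 86, with a median of 0.581 against 0.605 for the more abundant arm.

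**Figure D3:**
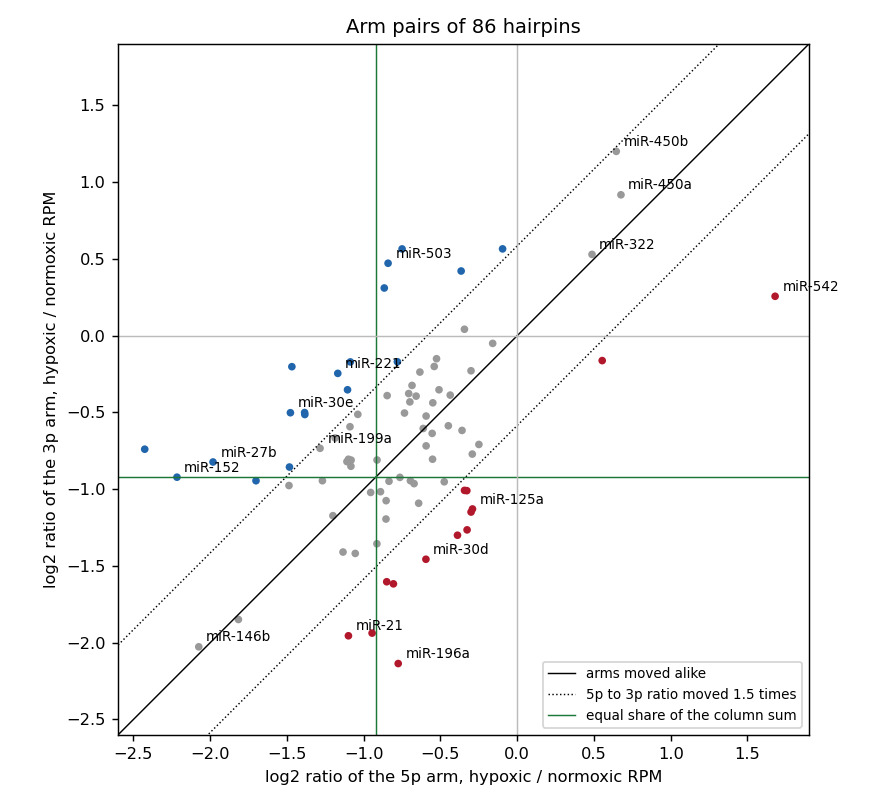
Each point is 1 of 86 hairpins, with the log2 ratio of its 5p arm across and of its 3p arm upwards, both from RPM of hypoxic over normoxic cells. Points beyond the dotted lines changed their 5p to 3p ratio by more than 1.5 times, 18 towards 3p (blue) and 14 towards 5p (red).

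Of the 64 hairpins with at least 50 reads on each arm in 1 library, miR-196a had the largest change towards the 5p arm. Its 5p arm had 4106 reads in normoxic and 3063 in hypoxic cells and its 3p arm 179 and 52, and the 5p to 3p ratio went from 22.9 to 58.9, a change of 2.57 times (1.88 to 3.51). miR-21 changed in the same direction, with 1242 reads of the 3p arm in normoxia and 409 in hypoxia, and its 5p to 3p ratio went from 2347 to 4246, 1.81 times (1.62 to 2.02). miR-30d and miR-125a did so by 1.82 times (1.41 to 2.34) and 1.79 times (1.40 to 2.29). In all 4 hairpins the 5p arm was the abundant one and its share of the pair, above 95% already, became larger.

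Changes towards the 3p arm were of 2 kinds. In miR-152, miR-27b, miR-221 and miR-27a the 3p arm was already dominant and the minor 5p arm was the lower in hypoxia. miR-152-5p had 546 and 150 reads beside 25039 and 16874 of miR-152-3p, so the 5p share of the pair was 2.13% and 0.881%, a change of 2.45 times (2.05 to 2.94). miR-27b-5p had 399 and 129 reads, and the change was 2.23 times (1.83 to 2.72). miR-27b and miR-27a lie in different clusters on chromosomes 17 and 19, and miR-27a changed by 1.85 times (1.73 to 1.97) in the same direction.

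In miR-503, miR-30e, miR-455 and miR-362 the 5p arm was dominant and lost share. For miR-503 the 5p arm made up 88.8% of the pair in normoxic and 76.1% in hypoxic cells, a change towards 3p of 2.48 times (2.16 to 2.85). For miR-455 the 5p share was 85.6% and 75.9%, and for miR-362 it was 79.6% and 68.1%. miR-30e-5p, of a family known to protect heart cells, had 14791 reads in normoxia and 6782 in hypoxia while its 3p arm had 315 and 284. The change in miR-30e was 1.97 times (1.67 to 2.31).

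The more abundant arm differed between the libraries in 3 hairpins. In miR-199a, known in heart cells as a repressor of HIF1A through its 5p arm, the 5p arm had 129721 reads and the 3p arm 125797 in normoxic cells, against 67991 and 96589 in hypoxic cells. The 5p share of the pair was 50.8% (50.6% to 51.0%) and 41.3% (41.1% to 41.6%), a change towards 3p of 1.46 times (1.45 to 1.48). This hairpin is the deepest of the 3, and its change is below the 1.5 times used above. In miR-324 the 5p share went from 50.2% to 41.3% and in miR-330 from 49.5% to 57.7%, but both had under 140 reads an arm and each interval included no change.

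Some abundant pairs kept their proportion while their level differed. The 5p share of miR-146b was 99.3% and 99.2%, although both arms stood near 0.24 of their normoxic RPM. The 5p share of miR-322 was 46.6% and 45.9%, with both arms above 1 on RPM, and that of let-7d was 86.3% and 86.2%. In hairpins with fewer reads, miR-33 had the largest change of all 86, 3.22 times (1.44 to 7.20) towards 3p, on 17 and 13 reads of its 3p arm. miR-542 changed 2.68 times (1.39 to 5.19) towards 5p on 11 and 45 reads of its 5p arm.

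Low-abundance miRNAs need separate reading, because counting error alone is large there. Of the 316, 60 had under 50 reads in both libraries, with a median ratio of 0.675 on RPM and 1.28 on the column sum. The interval held 1 for 40 of the 60 on RPM and for 44 on the column sum. In this group 15 were below 0.5 and 2 above 2 on RPM (27.8% and 1.27% over all 316), and 1 was below 0.5 and 14 above 2 on the column sum (3.8% and 11.7% over all 316). Each of the 60 had to reach 10 reads in both libraries and stay under 50, which limits how low or high its ratio can be. The medians and counts of this group are therefore partly set by that selection, and the shares over all 316 are not a like background for them.

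The spread of the log2 ratio was widest at the low end. Below a mean of 3 RPM it had an SD of 0.80 over 50 miRNAs, with a median interval width of 2.04 on the log2 scale. Between 100 and 1000 RPM the SD was 0.49 over 65 miRNAs and the width 0.14, and at 1000 RPM and above the SD was 0.60 over 43 miRNAs and the width 0.044. The medians on RPM ranged from 0.578 to 0.664 over 5 levels, so abundant and scarce miRNAs had similar medians.

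The 2 scarce miRNAs above 2 on RPM were miR-542-5p and miR-411-5p. miR-542-5p had 11 reads in normoxia and 45 in hypoxia, a ratio of 3.20 (1.63 to 6.87), the highest of all 316. miR-411-5p, of the imprinted Dlk1-Dio3 cluster, had 10 and 31 reads, a ratio of 2.43 (1.16 to 5.55). Neither interval lay wholly above 2 on RPM, and both did so on the column sum.

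Among the miRNAs listed in normoxic cells only, miR-205, of epithelia, was the most abundant with 54 reads (40.6 to 70.5). miR-3587 and miR-1b followed with 41 each, miR-7b with 30, miR-1-3p with 24 and miR-195-3p with 23. With an equal RPM all 22 would have been expected at 10 reads or more in hypoxic cells, and with an equal share of the column sum 12 of the 22 would. miR-7b has the seed of miR-7a-5p, and miR-1b and miR-1-3p share the seed of the muscle miRNA miR-206-3p, which was itself listed at 34 reads in normoxia and 20 in hypoxia. miR-7b differs from miR-7a-5p by 1 edit, and miR-1b from miR-1-3p by 1, so reads may have been divided between them in counting.

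Among those listed in hypoxic cells only, miR-134-5p had 90 reads (72.4 to 111). It was followed by miR-541-5p with 41 reads, miR-494-3p with 30, miR-125b-2-3p with 28, miR-381-3p with 25 and miR-216a-3p with 20. With an equal RPM 12 of the 15 would have been expected at 10 reads or more in normoxic cells, and with an equal share all 15 would. The first 3 and miR-381-3p belong to the Dlk1-Dio3 cluster. A miRNA listed at 0 had under 10 reads, so its absence is not shown and no ratio is given.

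**Figure D4:**
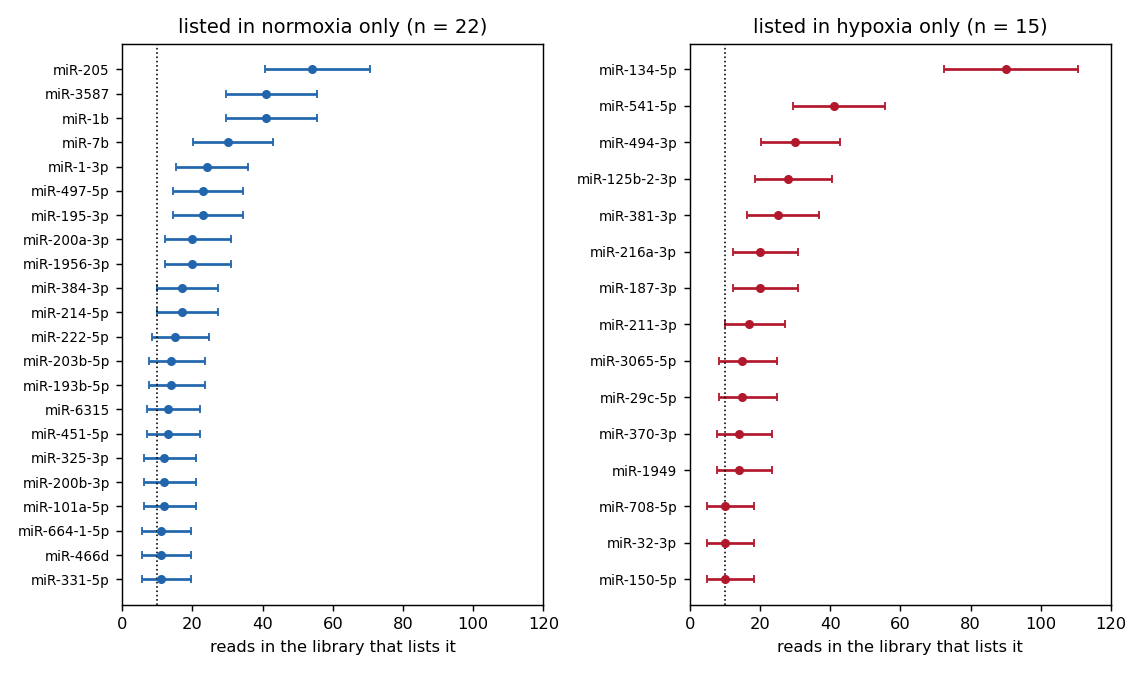
Reads with 95% exact Poisson intervals are plotted for the 22 miRNAs listed in normoxic cells only and the 15 listed in hypoxic cells only. The dotted line marks 10 reads, the smallest number listed, and apart from miR-134-5p at 90 and miR-205 at 54 all have 41 reads or fewer.

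The Dlk1-Dio3 cluster, an imprinted array of miRNAs expressed from the maternal chromosome, was scarcely listed in these cells. Of 78 arms of its miRNAs in the table, 4 were listed in both libraries, 5 in hypoxic cells only and none in normoxic cells only. Over all 353 listed miRNAs, 15 were listed in hypoxic cells only and 22 in normoxic cells only. The smallest listed value was lower in hypoxic cells, 0.753 RPM against 0.961 RPM in normoxic cells. The 4 in both summed to 4.32 RPM in normoxic and 6.85 RPM in hypoxic cells. All 4 in both had a ratio above 1 on RPM (42 of 316 over all miRNAs), from 1.01 for miR-127-3p (14 and 18 reads) to 2.43 for miR-411-5p. In normoxia they had 0.961 to 1.35 RPM, at or near the smallest listed value, and an arm under 0.753 RPM in hypoxia would not have been listed. Ratios far below 1 were therefore shut out by the floor, and the share over all miRNAs is not a like background for these 4. Of the 4 intervals 3 included 1.

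Groups of related miRNAs are described by their median ratio beside that of all miRNAs, 0.612 on RPM and 1.16 on the column sum. Among 10 listed arms of miRNAs known to respond to low oxygen or to act on HIF, 3 were above 1 on RPM (42 of 316 over all miRNAs). These were both arms of miR-322 and miR-210-3p. miR-103-3p and miR-107-3p, which act on glucose metabolism, had 2100 and 119 RPM in normoxia and 1400 and 54.5 RPM in hypoxia. miR-199a-5p, at 12467 and 5118 RPM, had the lowest ratio of the 10, 0.410 (0.407 to 0.414), and miR-155-5p had 15.6 and 14.5 RPM. The group thus held both directions, with a median of 0.797 on RPM and 1.51 on the column sum.

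The miRNAs induced by NF-kB signalling had the lowest median of the 20 groups, 0.395 on RPM and 0.749 on the column sum over 6 arms, 4 of them below 0.5 on RPM (27.8% of all miRNAs). On the column sum 2 of the 6 were below 0.5 (3.8% of all miRNAs), both of them arms of miR-146b. miR-155-5p lay higher, at 0.928 on RPM and 1.76 on the column sum. The seed relatives in this group differed. miR-146a-5p had 2265 RPM in normoxia against 1253 RPM in hypoxia, 1.05 (1.03 to 1.07) on the column sum, while miR-146b-5p stood at 0.450 on that scale. The pair was therefore carried by miR-146b in normoxic cells, with 3010 RPM, and by miR-146a in hypoxic cells.

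The miRNAs known from neurons had a median of 0.486 on RPM and 0.921 on the column sum over 16 arms, 8 of them below 0.5 on RPM (27.8% of all miRNAs). Most of the summed level, 8330 RPM in normoxic and 2292 RPM in hypoxic cells, was miR-7a-5p and miR-129-5p. miR-128-3p, with 347 and 206 RPM, and miR-129-1-3p, with 382 and 279 RPM, were at 0.594 and 0.731. Arms from the Hox gene clusters had a median of 0.491 over 8, all below 1 on RPM (274 of 316 over all miRNAs). Among them were miR-10a-5p at 12331 and 5715 RPM and miR-10b-5p at 1072 and 445 RPM.

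The let-7 family, which restrains growth and is high in differentiated cells, had a median of 0.553 over 18 arms. let-7i-5p led it with 16193 RPM in normoxia against 8953 RPM in hypoxia. let-7f-5p, with 5841 and 3992 RPM, was at 1.30 (1.28 to 1.31) on the column sum, and let-7c-5p, with 5393 and 2442 RPM, at 0.858 (0.846 to 0.870). These differ by few bases, so reads may have been divided between them in counting.

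The miR-17-92 cluster and its relatives, driven by MYC and E2F, had a median of 0.701 over 15 arms. All 15 were below 1 on RPM, as were 274 of all 316 miRNAs. miR-20a-5p had 1070 and 808 RPM, miR-25-3p 1009 and 707 RPM, miR-92a-3p 891 and 510 RPM, and miR-93-5p 790 and 641 RPM. The miR-34 family, transcribed under p53, had a median of 0.712 over 6 arms, with miR-34c-5p at 1327 and 772 RPM, miR-34b-5p at 338 and 208 RPM and miR-34a-5p at 115 and 78.3 RPM. On the column sum the medians were 1.33 and 1.35, both above that of all miRNAs.

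The miR-29 family, which represses collagens, was split. miR-29a-3p had 2167 RPM in normoxia against 2093 RPM in hypoxia, 1.83 (1.80 to 1.86) on the column sum, whereas miR-29b-3p, with 184 and 86.4 RPM, was at 0.889. miR-30 likewise ranged from 0.359 (0.349 to 0.370) for miR-30e-5p, with 1422 and 510 RPM, to 0.930 (0.903 to 0.958) for miR-30c-5p, with 803 and 747 RPM. miR-30d-5p and miR-30a-5p, with 3502 and 2005 RPM in normoxia and 2319 and 1329 RPM in hypoxia, were both at 0.66. miR-30c-5p, miR-30c-1-3p and miR-30e-5p come from neighbouring genes on chromosome 5, but miR-30c-5p could also come from another hairpin.

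In other families the abundant arms are given first. The miR-23-27-24 clusters had a median of 0.553 over 11 arms and a range from 0.253 for miR-27b-5p to 0.763 for miR-23a-3p, with miR-27b-3p at 6154 and 3478 RPM, miR-24-3p at 4682 and 3346 RPM, miR-27a-3p at 3655 and 2583 RPM and miR-23a-3p at 1704 and 1300 RPM. miR-221-3p and miR-222-3p, which share a transcript and a seed, were at 0.843 and 0.762 on RPM, and miR-221-5p at 0.445. In the miR-181 family miR-181a-5p had 1115 and 1008 RPM and miR-181b-5p 899 and 638 RPM, and the 5 arms ranged from 0.265 for miR-181b-1-3p to 0.948 for miR-181d-5p. miR-125b-5p, with 9490 and 7068 RPM, and miR-99b-5p, with 4324 and 2295 RPM, were at 1.41 and 1.01 on the column sum.

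**Figure D5:**
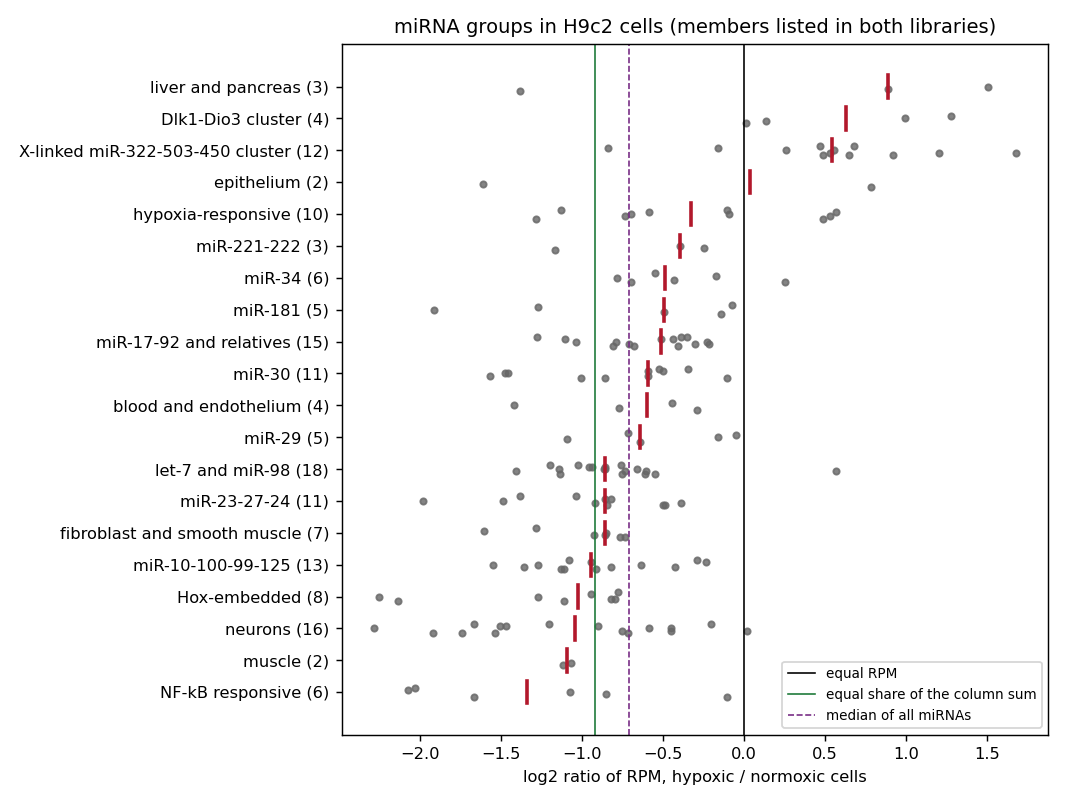
Each grey point is the log2 ratio of RPM for 1 arm listed in both libraries, and the red bar the median of its group, with the number of arms in brackets. The medians of the 3 liver and pancreas arms (1.85), the 4 Dlk1-Dio3 arms (1.55) and the 12 X-linked arms (1.46) lie furthest right, and that of the NF-kB group (0.395) furthest left.

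Markers of cell types were checked against the label. Muscle miRNAs were scarce in both libraries, with miR-499-5p at 26.6 RPM in normoxia and 12.7 RPM in hypoxia and miR-206-3p at 3.27 and 1.51 RPM, and no arm of miR-133 or miR-208 was listed. Arms typical of fibroblasts and smooth muscle summed to 47928 and 24753 RPM, mostly miR-143-3p, miR-199a-5p and miR-199a-3p. The defining miRNAs of differentiated heart muscle were therefore listed at 0 or at a low level, and those of fibroblasts and smooth muscle were abundant in both conditions.

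Markers of endothelium, blood, epithelium, liver and pancreas were low in both libraries. Those of neurons, given above, summed to 8330 RPM in normoxic and 2292 RPM in hypoxic cells, but most of this was miR-7a-5p and miR-129-5p. Of the 27 arms of the neuron list 17 were listed. Others of them were scarce, such as miR-9a-5p with 25.8 and 8.13 RPM and miR-138-5p with 2.59 and 1.58 RPM. The list as a whole was thus not high. Endothelial and blood miRNAs summed to 150 and 89.6 RPM, most of it miR-126a-3p with 134 and 78.4 RPM, and the 2 epithelial arms listed in both to 12.3 and 8.05 RPM. Liver and pancreas miRNAs summed to 28.7 and 43.1 RPM, where miR-122-5p had 14.9 and 5.72 RPM and miR-217-5p the opposite direction. Of the 12 arms of this last list 4 were listed. Whether other cells or carried-over RNA had a part in the scarce miRNAs was not tested.

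By seed, the listed miRNAs with a matched sequence (326 of 353) formed 262 families, 235 of them in both libraries. Those without a match, such as miR-30d-5p and miR-99a-5p, are in no family, so counts and shares of families leave them out. On the column sum 29 families (12.3%) were above 2 and 10 (4.26%) below 0.5, but only 3 of these had more than 1 member. The seed UUUGCGA of miR-450a-5p and miR-450b-5p made up 0.215% of miRNA reads in normoxic and 0.646% in hypoxic cells, 3.01 (2.94 to 3.08). The seed GGAAGAC of miR-7a-5p and miR-7b made up 0.736% and 0.286%, 0.389 (0.380 to 0.397). The seed GGAAUGU of miR-1-3p, miR-1b and miR-206-3p had 99 and 20 listed reads, but 2 of its members were not listed in hypoxia, and with 9 reads for each of these, the most that is not listed, its ratio would be 0.570 and not past 0.5.

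The larger seed families moved less. The let-7 seed GAGGUAG, with 9 members, held 8.26% and 8.73% of miRNA reads, 1.06 (1.05 to 1.06). The seed CCCUGAG of miR-125a-5p, miR-125b-5p and miR-351-5p held 2.53% and 4.10%, 1.62 (1.61 to 1.63), and all 3 members were above 1.4 on the column sum. The seed GCUACAU of miR-221-3p and miR-222-3p held 1.16% and 1.81%, 1.55 (1.54 to 1.57). The seed GAGAACU of miR-146a-5p and miR-146b-5p held 1.03% and 0.730%, 0.707 (0.696 to 0.717), which hides members on opposite sides of 1. Seeds UCACAGU (miR-27a-3p and miR-27b-3p), ACCCGUA (miR-99b-5p and miR-100-5p) and UCAAGUA (miR-26a-5p and miR-26b-5p) were at 1.17, 1.08 and 1.18. Of the 37 families with 2 or more members, 29 were above 1 and 8 below on the column sum, and 35 were below 1 on RPM. Over all 316 miRNAs, 211 were above 1 on the column sum and 274 below 1 on RPM.

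By position, 27 clusters were found in which miRNA genes of 1 strand lie within 10 kb of the next. A median RPM ratio above 1 was found for 6. The highest were those of Mir216a and Mir217 on chromosome 14 (2.34), of Mir300, Mir379 and Mir411 on chromosome 6 (1.99, on 10 to 31 reads an arm) and the X-linked cluster (1.46). Over the arms with a matched sequence, the lowest were Mir30c1 and Mir30e on chromosome 5 (0.359) and Mir191 and Mir425 on chromosome 8 (0.428). In the latter miR-191a-5p had 4398 and 2116 RPM and miR-425-5p 154 and 47.4 RPM. miR-30e-3p, at 0.706 on RPM, had no matched sequence and is left out of the first median. Neighbouring genes may share a transcript, so the members of a cluster are not independent.

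Sequence features of the mature miRNAs varied little with the ratio. Over 292 miRNAs, which share the libraries and their ligation and PCR, Spearman's rho with the log2 ratio was -0.08 for GC content, -0.01 for length and -0.07 for level. Median ratios on RPM were 0.653 for 120 miRNAs that begin with U, 0.637 for 80 with A, 0.570 for 65 with C and 0.528 for 27 with G. The median was 0.613 for 143 arms named 5p and 0.608 for 139 named 3p.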

How the data were processed

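Small RNA from normoxic and hypoxic H9c2 cells was sequenced on an Illumina platform, with 1 library a group, and the authors deposited RPM for 765 rat mature miRNAs of the series in 1 table. The submitters' processing notes name the build Rnor 6.0, and how reads were aligned, counted and scaled was not given in the sources used here. A sample number that the methods state for RNA extraction was not taken as replicate libraries.

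From the deposited RPM the step of 1 read was found for each library, with a tolerance of 0.1 of a step, and no count model was fitted. Intervals are 95% exact (Clopper-Pearson) intervals of the reads, and for the 5p to 3p ratio normal intervals on the log scale. The computation was tested on simulated data.

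Named were the 12 most abundant miRNAs of each library, the 12 highest and 12 lowest ratios of miRNAs that reached 100 reads in 1 library, the 12 largest arm changes among hairpins with at least 50 reads on each arm in 1 library, every hairpin whose more abundant arm differs, the 6 most abundant listed in 1 library only, up to 4 members of each of 20 lists, the 10 largest seed families and seed families past 2-fold, of which those with 2 or more members are printed. Members of the clusters described, the hairpins miR-33, miR-542, miR-146b, miR-322 and let-7d, and the scarce miRNAs above 2 were chosen after seeing their values. The members and lists were chosen with earlier results of these data known. Genes within 10 kb on 1 strand formed a cluster, and miRNAs within 2 edits were taken as near-identical (34 pairs of 49 miRNAs). The tools were matplotlib 3.10.9, pandas 2.3.3, scipy 1.17.1 and numpy 2.4.6 under Python 3.11.15. Other scalings, read minimums, pseudocounts and thresholds were tried.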

Additional observations from a re-analysis of the deposited data

How the results depend on the processing

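No result here has a replicate, so no library could be left out, and no paired analysis was possible because each group has 1 library. The scale of the libraries and the fold threshold both moved the counts. Of the 316 miRNAs listed in both libraries, those with a ratio below 0.5 number 88 on RPM, 12 after scaling to the column sum, and 17 with the sum taken without miR-21-5p, the median ratio set to 1 or the trimmed mean of M values (30% of ratios and 5% of levels trimmed). Those above 2 number 4 on RPM, 37 on the column sum and 26 under each of the other 3 scalings. The median log2 ratio was -0.71 on RPM (-0.79 to -0.64 from order statistics), 0.21 on the column sum, 0.024 without miR-21-5p, 0 by construction and 0.0068 by the trimmed mean, and it was -0.63 with log2(RPM + 1).

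Minimums and thresholds moved the counts as follows. With at least 50 reads in both libraries 58 were below 0.5 and 2 above 2 on RPM, with at least 100 reads in 1 library 2 were above 2, and over all 353 miRNAs with a pseudocount of 1 RPM 15 were. Counting intervals lay wholly past the threshold for 45 and 1, and 190 and 12 passed 1.5-fold. On the column sum 19 and 18 were above 2 with the read minimums, 4 below and 18 above had an interval wholly past the threshold, and 25 and 78 passed 1.5-fold. The 32 hairpins whose arm ratio moved became 21 with at least 50 reads on both arms in both libraries, and 9 at 2-fold or with the interval wholly past 1.5 times. Of the 37 miRNAs listed in 1 library only, 16 had at least 20 reads. The 39 seed families past 2-fold became 76 on RPM and 21 with at least 100 reads in 1 library. Setting members not listed in 1 library to 9 reads there, chosen after seeing the data, gave 38. Each scaling divides all ratios by 1 number. These numbers lay from 0.528 to 0.612, so with these scalings a ratio below 0.5 or above 2 on RPM could not cross 1. A divisor below 0.5 could have turned some of them. Of the 38 miRNAs named by level or ratio, 8 were below 1 on RPM and above 1 on the column sum, among them let-7f-5p, miR-125b-5p, miR-221-3p and miR-24-3p.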
